A study of Mus musculus with 6 samples.

Results

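The sites described here are the 1073 DBD-independent Rev-erbα binding sites that lay at promoters in mouse liver. They were chosen as the peaks of the deposited DBD-independent list whose centre was at most 1000 bp from the transcription start site, by the signed distance deposited with each peak. They made up 29.98% of the 3579 peaks of that list and 9.12% of the 11767 Rev-erbα peaks of the ZT10 list, in which each of them was found at the same coordinates. DBD stands for the DNA-binding domain, and the name of the list is the only source for independence from it.

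The study measured Rev-erbα binding by chromatin immunoprecipitation and sequencing (ChIP-seq) in liver of male C57B/6 mice aged 12 weeks, kept on normal chow and a light/dark cycle, with 1 antibody against Rev-erbα (Cell Signaling Technology). Samples were taken at zeitgeber time 10 (ZT10), late in the light phase. There were 3 WT samples and 3 HNF6 KO samples, and the labels do not say how HNF6 was deleted, in which liver cells, or whether the replicates were separate animals. Neither list names a sample or holds a value per sample, and which samples entered them is not stated, so WT and HNF6 KO livers were not compared, and the depth per sample is unknown. No sample had a labelled change in the DBD of Rev-erbα.

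Rev-erbα (gene Nr1d1) is a heme-binding nuclear receptor of the circadian clock. It lacks the activation helix of other nuclear receptors and represses genes by bringing in the corepressor NCoR with the histone deacetylase HDAC3. At clock genes it binds DNA itself, at elements it shares with the activating ROR receptors. In liver it has also been described at metabolic genes through other factors bound to DNA, among them HNF6 (Onecut1), a hepatocyte factor of the Onecut family, and the DBD is not needed there. A promoter site in these lists is a position of recovered chromatin, and the lists do not show which protein touched the DNA.

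The deposited distances of neighbouring promoter sites were compared with the positions of their peaks. Of 28 neighbouring pairs of promoter sites with centres up to 1000 bp apart, 24 had distances whose difference equalled the gap between their centres (85.7%, 95% Wilson interval 68.5 to 94.3%). Such pairs share 1 reference point, which shows that the distances are measured to stranded points but not that these points are start sites. The other 4 pairs did not match in this way. In 1 of them, on chromosome 2 at 21126935 to 21127084 and at 21127265 to 21127414, the sites lay 330 bp apart and their distances were -17 and -12 bp. That the points are transcription start sites is taken from the description of the column. Peaks are 150 bp wide, positions are 1-based in mm9, and negative distances are called upstream. Neither list names genes, and the gene and promoter tables at hand are for GRCm38, so genes and sequences at these sites are not given. Peaks are not biological replicates, and every interval below covers counting error over the peaks of these lists only.

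The promoter sites were concentrated in a narrow band just before the start site. The median signed distance was -72 bp and the median absolute distance 140 bp. Within 250 bp lay 743 of the 1073 sites (69.2%, 66.4 to 71.9%), and the 250 bp upstream of the start alone held 594 (55.4%, 52.4 to 58.3%). At 323 sites (30.1%, 27.4 to 32.9%) the centre was within 75 bp, the half-width of a peak, so that the peak reached the start site. The fullest 25 bp step was -75 to -51 bp, with 84 sites.

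The number of sites dropped at the start site itself. There were 77 sites in the 25 bp before it and 32 in the first 25 bp from it on, and in the 50 bp on each side there were 150 and 62. The upstream share was highest not at the start but some way from it. It was 70.8% within 50 bp (150 of 212, 64.3 to 76.5%), 79.8% beyond 50 and up to 100 bp (162 of 203, 73.8 to 84.7%) and 86.0% beyond 100 and up to 250 bp (282 of 328, 81.8 to 89.3%). It was 58.1% beyond 250 and up to 500 bp (93 of 160, 50.4 to 65.5%). Beyond 500 bp it was 41.2%, near the share found farther out.

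**Figure D1:**
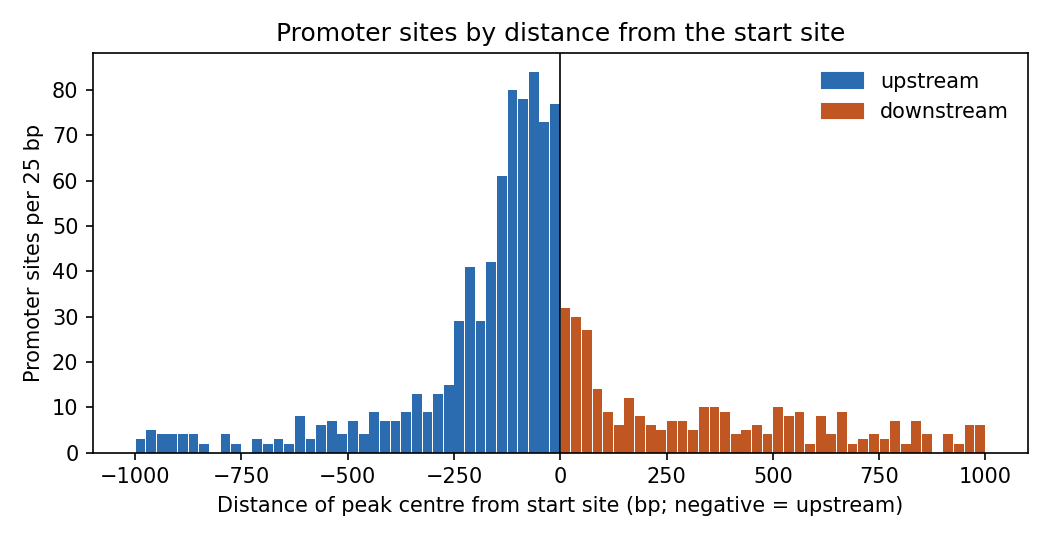
Number of promoter sites (y axis) per 25 bp of signed distance between peak centre and start site (x axis, bp), with upstream sites in blue and downstream sites in orange. Counts are highest between -125 and -1 bp and fall from 77 to 32 across the start site.

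Upstream sites made up 70.5% of the promoter sites (757 of 1073, 67.8 to 73.2%). The share was 43.8% among the 816 DBD-independent sites 1 to 10 kb from a start site and 41.7% among the 1690 sites beyond 10 kb. The differences were 26.8 percentage points (95% Newcombe interval 22.4 to 31.1) and 28.8 points (25.2 to 32.4). Within the promoter sites, the share at up to 500 bp exceeded that beyond 500 bp by 34.9 points (26.9 to 42.5).

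Each listed peak carries 2 whole numbers, here the first and the second value. Their unit and meaning are not stated, including whether they share a scale, so they were treated as scores and are compared only within the list. For the promoter sites the first value had a median of 12, with quartiles of 9 and 18 and a range of 2 to 103. The median of the second value was 11, with quartiles of 8 and 17 and a range of 2 to 102. A first value of 30 or more was found at 62 promoter sites, 12 to 29 at 543, 6 to 11 at 413 and under 6 at 55. Most promoter sites therefore had middle values, as did most sites of the other 2 distance classes. The share of sites at 30 or more was 5.78% (4.53 to 7.34%) at promoters and 10.1% (8.77 to 11.6%) beyond 10 kb. The share under 6 was 5.13% (3.96 to 6.61%) at promoters and 12.0% (10.5 to 13.6%) beyond 10 kb.

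Upstream promoter sites had higher values than downstream ones. The median first value was 13 upstream (quartiles 10 and 20, range 3 to 103) and 10 downstream (quartiles 7 and 14, range 2 to 60), and the 2 ranges overlapped over most of their length. The median second value was 12 upstream and 9 downstream. A first value of at least 12, the median of the whole DBD-independent list, was found at 62.9% of upstream sites (476 of 757) and 40.8% of downstream sites (129 of 316). This difference was 22.1 points (15.5 to 28.3).

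The first value was lower downstream of the start site than upstream of it, and whether it changed in a step there was not tested. In each of the 5 upstream intervals of distance the median first value was 13 or 14. In the downstream intervals, ending at 50, 100, 250, 500 and 1000 bp, it was 11.5, 11, 9, 11 and 9. In the intervals next to the start, up to 50 bp on each side, the lower quartile was 9 on both. The upper quartile was 17 upstream and 15.75 downstream. Within a side the first value varied little with distance. Spearman's rho of the first value with absolute distance was 0.04 across the 757 upstream sites and -0.11 across the 316 downstream sites, given as a description across peaks of pooled lists.

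**Figure D2:**
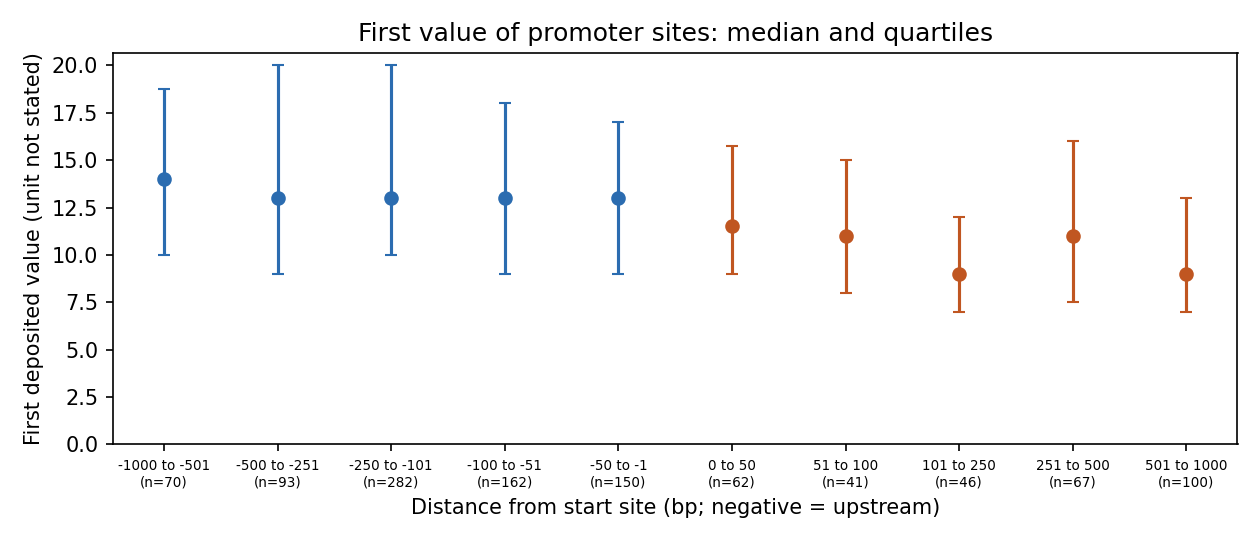
Median first value of the promoter sites (points) with the lower and upper quartiles (bars), by interval of signed distance in bp; n is the number of sites, upstream in blue and downstream in orange. Upstream medians are 13 or 14 and downstream medians 9 to 11.5, with overlapping quartiles.

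The order of the ZT10 list gave the same contrast. That list carries no score, but across the promoter sites its order followed the first value (Spearman's rho of position with first value -0.92), so position and value are not separate evidence. Among the first 1177 of the 11767 ZT10 peaks, bin 1 of 10 bins of equal size, stood 14.4% of the upstream promoter sites (109 of 757, 12.1 to 17.1%) and 6.01% of the downstream ones (19 of 316, 3.88 to 9.20%). The difference was 8.39 points (4.44 to 11.8). The median position was 3684 for upstream and 5358 for downstream promoter sites.

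This difference between the sides was tested against that of sites farther out. At 1 to 10 kb the share in bin 1 was 18.2% upstream and 19.0% downstream, and beyond 10 kb it was 17.9% and 17.7%. Upstream minus downstream, that was -0.747 points (-6.05 to 4.71) and 0.207 points (-3.44 to 3.96), both including 0. The upstream excess at promoters was larger than these by 9.13 points (2.40 to 15.4) and 8.18 points (2.74 to 13.2). For a first value of at least 12 the corresponding figures were 18.1 points (8.70 to 27.5) and 20.3 points (12.2 to 28.2). With promoter sites taken up to 2500 bp, the intervals for bin 1 against both farther classes included 0 (6.73 points, -0.570 to 13.7, and 5.03 points, -0.407 to 10.2). Among sites with a first value of at least 10, the interval for the first value against 1 to 10 kb included 0 (9.12 points, -0.534 to 19.4). Comparisons of the sides were chosen after the values had been seen.

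**Figure D3:**
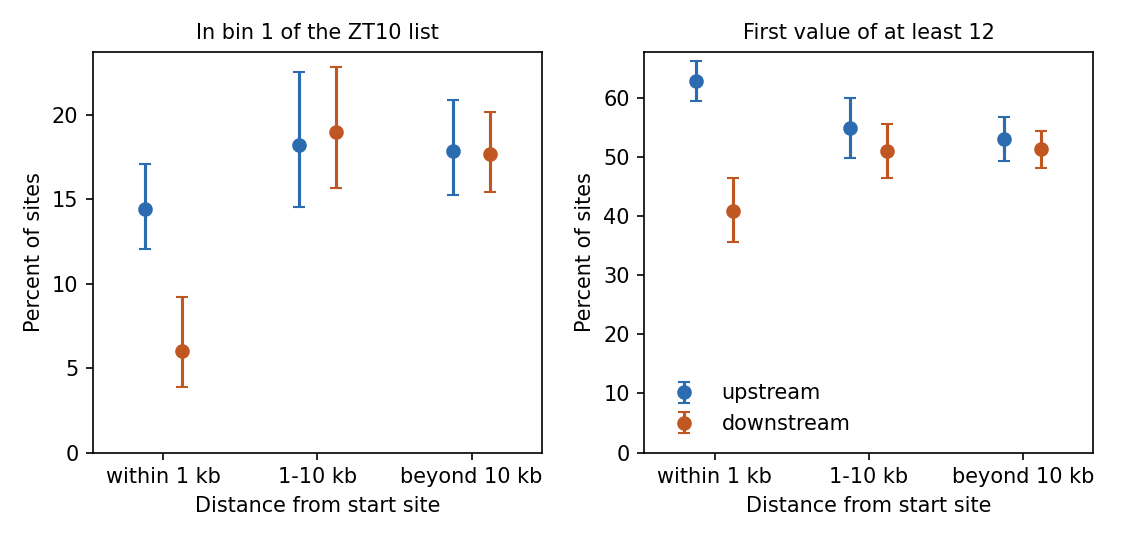
Percent of DBD-independent sites in bin 1 of the ZT10 list (left) and with a first value of at least 12 (right), for upstream (blue) and downstream (orange) sites in 3 distance classes; bars are 95% Wilson intervals. The sides are apart within 1 kb (14.4% and 6.01% on the left) and overlap at 1-10 kb and beyond 10 kb.

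As a share of the DBD-independent sites, promoter sites were most frequent in the middle of the ZT10 list. Among the DBD-independent sites of bin 1, 22.1% were promoter sites (128 of 580, 18.9 to 25.6%). The share was 39.5% in bin 5 (155 of 392, 34.8 to 44.5%) and 8.87% in bin 10 (11 of 124, 5.03 to 15.2%). Bin 5 exceeded bin 1 by 17.5 points (11.6 to 23.3) and bin 10 by 30.7 points (22.8 to 36.9), bins that were picked after the shares had been seen. The shares of the 3 distance classes in a bin add up to the whole, so the other classes move against promoter sites by construction. As a share of all ZT10 peaks, promoter sites were highest in bin 3 (14.8%, 174 sites), with 10.9% in bin 1, 13.2% in bin 5, 11.3% in bin 6 and 0.935% in bin 10. On that basis bin 1 was close to bin 6, and the low end was the end of the list.

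**Figure D4:**
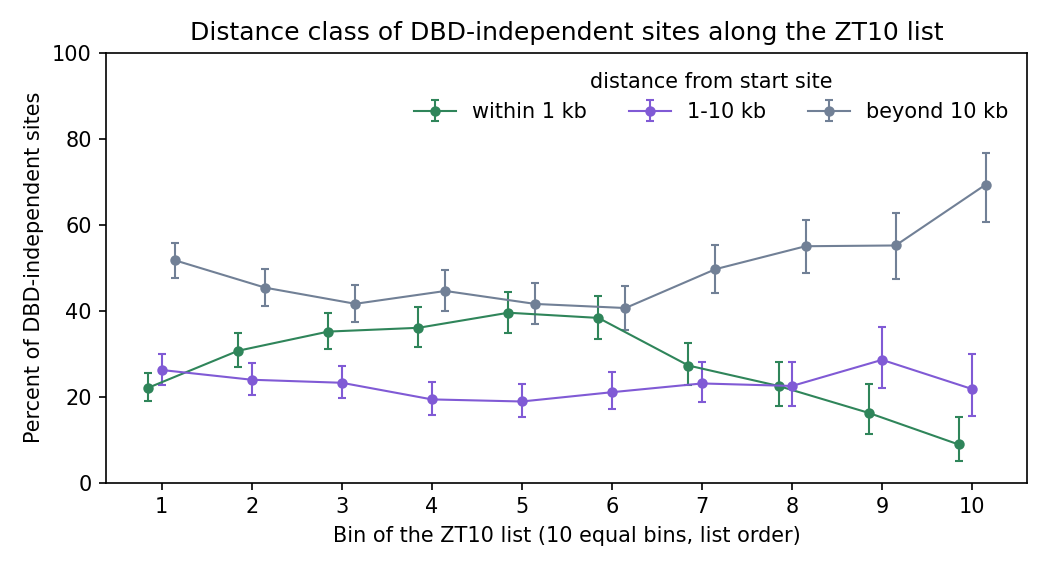
Percent of the DBD-independent sites in each of 10 bins of the ZT10 list (x axis, list order) that lay within 1 kb, at 1-10 kb or beyond 10 kb of the start site; bars are 95% Wilson intervals. The share within 1 kb goes from 22.1% in bin 1 to 39.5% in bin 5 and to 8.87% in bin 10.

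Counted by class, 11.9% of the promoter sites stood in bin 1, against 18.6% of sites at 1 to 10 kb and 17.8% of those beyond 10 kb. The differences were -6.70 points (-10.04 to -3.43) and -5.82 points (-8.44 to -3.11). Among the last 3530 ZT10 peaks, bins 8 to 10, stood 8.57% of the promoter sites (92 of 1073), against 15.6% and 18.2%, differences of -6.99 points (-10.05 to -4.03) and -9.65 points (-12.1 to -7.11). The last comparison was chosen after the values had been seen. The median position hardly separated the classes, at 4128 for promoter sites, 3820.5 at 1 to 10 kb and 4183 beyond 10 kb, but the quartiles of promoter sites (2182 and 6164) were closer together than those beyond 10 kb (1752.75 and 7308.75).

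For the share with a first value of at least 12 the classes were close. It was 56.4% for promoter sites, 3.69 points above sites at 1 to 10 kb (-0.840 to 8.21, which includes 0) and 4.37 points above sites beyond 10 kb (0.558 to 8.16). The latter interval included 0 when the second value was used (1.43 points, -2.39 to 5.23) and with identifiers below 27000 (3.72 points, -0.379 to 7.78). The direction turned among sites with a first value of at least 10 (-1.70 points, -5.39 to 1.90).

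At promoter sites the second value was the lower of the pair in 57.6% (618 of 1073), equal in 14.5% (156) and the higher in 27.9% (299). Divided by the first, the second value had a median ratio of 0.909 and ran from 0.677 to 1.46. The ratio ended at almost the same bounds at 1 to 10 kb (0.675 to 1.46) and beyond 10 kb (0.671 to 1.47), so this range is not a trait of promoter sites. All listed peaks thus lay within such bounds, and the shares compared here describe only peaks inside that range. The share with a lower second value was smaller than at 1 to 10 kb, where it was 62.4% (difference -4.78 points, -9.20 to -0.316). It was also smaller than beyond 10 kb, where it was 61.4% (difference -3.82 points, -7.58 to -0.0763). Both intervals ended close to 0 and included it when only autosomes were taken (-4.43, upper bound 0.0704, and -3.59, upper bound 0.191). Within the promoter sites the share was 68.6% farther than 500 bp upstream (48 of 70, 57.0 to 78.2%). It was 49.5% beyond 250 and up to 500 bp upstream (46 of 93, 39.5 to 59.4%). These were the highest and the lowest of the 10 intervals of distance, picked after the shares had been seen. The other intervals of distance had shares from 53.2 to 63.4%. The Wilson intervals of the highest and the lowest share overlapped, and their difference was not tested. Upstream and downstream promoter sites had shares of 56.5% and 60.1%, a difference of -3.59 points whose interval included 0 (-9.92 to 2.92).

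The 20 promoter sites with the highest first values, from 41 to 103, were mostly short-range upstream sites. Of these 20 sites, which lay on 10 chromosomes, 18 were upstream, 17 were within 250 bp of the start site and 10 lay upstream between 100 and 250 bp. Over all promoter sites, 70.5% were upstream, 69.2% within 250 bp and 26.3% upstream between 100 and 250 bp. Another ZT10 peak within 10 kb was found at 3 of the 20, and at 31.9% of all promoter sites. The second value was the lower of the pair at 11, the higher at 6 and equal at 3.

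The highest first value belonged to the site on chromosome 9 at 58429856 to 58430005, with values of 103 and 80 at -117 bp. It was followed by chromosome 7 at 16683711 to 16683860 (94 and 102, -207 bp) and chromosome 4 at 129419682 to 129419831 (89 and 72, -209 bp). These 3 sites were at positions 2, 1 and 5 of the ZT10 list and had no other ZT10 peak within 10 kb. The fourth, with values of 82 and 73 at -50 bp, was on chromosome 14 at 45839045 to 45839194 and was the highest site within 100 bp upstream. After it the values fell to 66 and 59, on chromosome 7 at 15023973 to 15024122 (-147 bp).

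Further high sites lay in the same upstream band. On chromosome 5 at 137548217 to 137548366 the values were 59 and 64 (-149 bp). On chromosome 2 at 121274724 to 121274873 they were 55 and 67 (-166 bp), and on chromosome 10 at 127520126 to 127520275 they were 51 and 51 (-163 bp). Chromosome 11 held 3 of the 20, at 86922557 to 86922706 (47 and 50, -132 bp), at 96839051 to 96839200 (46 and 49, -123 bp) and at 118338052 to 118338201 (46 and 39, -148 bp). Of these 6 sites, 4 had a second value above the first.

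Closer to the start, high sites were found on chromosome 16 at 93354320 to 93354469 (44 and 37, -78 bp) and on chromosome 2 at 24831459 to 24831608 (43 and 56, -20 bp). The latter had the largest ratio of the 20, 1.30. The sites on chromosome 9 at 106379550 to 106379699 (43 and 43, -16 bp) and on chromosome 17 at 57367571 to 57367720 (41 and 37, -86 bp) completed this group. Farther upstream were the sites on chromosome 4 at 35173832 to 35173981 (55 and 45, -777 bp), on chromosome 7 at 149847790 to 149847939 (45 and 38, -924 bp) and on chromosome 4 at 150418954 to 150419103 (45 and 36, -297 bp). The second value was the lower at all 3 of these farther sites.

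Downstream sites with high values were few. The highest were on chromosome 7 at 134592537 to 134592686 (60 and 50, 61 bp) and on chromosome 10 at 61949447 to 61949596 (44 and 44, 32 bp), both among the 20, and then on chromosome 5 at 149996099 to 149996248 (38 and 30, 37 bp). Beyond 100 bp downstream the first value did not exceed 33. That site was on chromosome 15 at 81642171 to 81642320 (33 and 23, 401 bp), followed by chromosome 11 at 102825135 to 102825284 (32 and 28, 259 bp) and chromosome 10 at 77927419 to 77927568 (32 and 25, 200 bp). All of these downstream sites but that on chromosome 10 at 61949447 had a second value below the first.

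At the limit of the definition, the sites just inside were at 999, 997 and -995 bp, with first values of 12, 6 and 8. The sites just outside were at -1006, 1006 and 1007 bp, with first values of 18, 7 and 15. The outermost 25 bp inside the limit held 3 sites upstream and 6 downstream. Sites per 25 bp were not counted outside it.

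Promoter sites were found on 20 chromosomes. Their share of the listed sites was highest on chromosome 7, with 103 of 242 (42.6%, 36.5 to 48.9%), and lowest on chromosome 1, with 51 of 241 (21.2%, 16.5 to 26.8%). Chromosome 17 had 58 of 160 (36.2%, 29.2 to 43.9%) and the X chromosome 22 of 58 (37.9%, 26.6 to 50.8%). These shares are a description, since the number of start sites on each chromosome was not used.

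Most promoter sites shared their start site with no other listed site. Exactly 189 of the 1073 (17.6%, 15.5 to 20.01%) shared a point with another listed site. They lay at 162 points, of which 84 were on the plus strand and 78 on the minus strand. Of these points 135 had 1 promoter site and 27 had 2, and 0 had 3 or more. The ZT10 peaks outside the DBD-independent list carry no distance and were not counted here. Over all listed sites, 472 points had 2 or more sites. The share of sites that shared a point was not counted for the other distance classes, so a difference from them was not tested.

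At the 27 points with a pair of promoter sites, the pair flanked the start in 16 cases, lay upstream in 8 and downstream in 3. The spacing of the pair had a median of 442 bp (range 181 to 1148 bp). The site nearer to the start had the higher first value at 12 points, the lower at 12 and an equal one at 3. Of the 16 flanking pairs, the downstream site had the higher first value in 11, the upstream site in 4, and 1 pair was equal. In these few pairs the downstream sites were thus more often the higher ones, the reverse of the order over all promoter sites, and this contrast was not tested.

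The 5 pairs with the highest first value were of different kinds. At the minus-strand point on chromosome 5 at 143579067 both sites were upstream, at -561 bp (17 and 12) and -319 bp (39 and 36). At the plus-strand point on chromosome 5 at 149996137 the sites lay at -310 bp (13 and 12) and 37 bp (38 and 30). At the plus-strand point on chromosome 8 at 86590736 they lay at -446 bp (10 and 7) and -40 bp (34 and 27). In each of these 3 pairs the site nearer to the start had at least 2-fold the first value of the other. The minus-strand point on chromosome 2 at 147872706 had sites at -148 bp (32 and 28) and 612 bp (13 and 9), and the minus-strand point on chromosome 12 at 112217232 had sites at -190 bp (10 and 14) and 370 bp (31 and 33). In the last pair the site farther away was the higher.

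**Figure D5:**
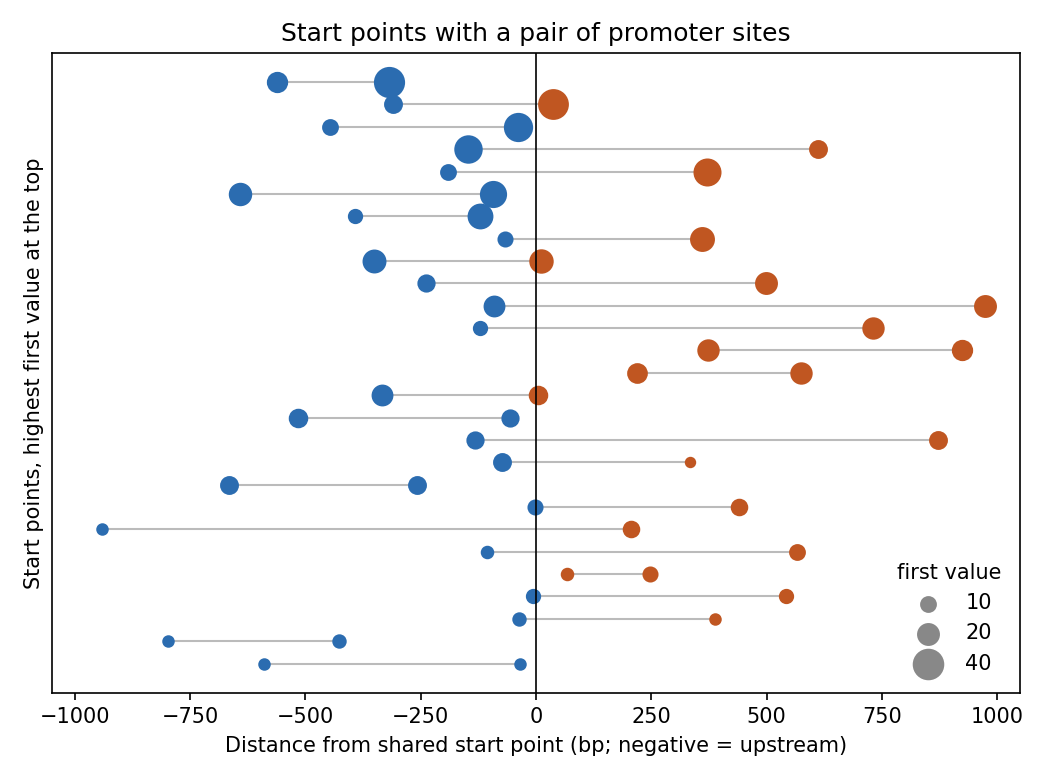
The 27 start points with a pair of promoter sites, 1 row each, with the distance of each site from the shared point on the x axis (bp) and the area of the dot scaled to its first value; upstream sites are blue and downstream sites orange. The sites flank the start in 16 rows, and the larger dot is downstream in 11 of these.

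Other promoter sites had partners at longer range. At 137 points a promoter site occurred together with listed sites beyond 1 kb, 1 such site at 109 points, 2 at 21, 3 at 6 and 4 at 1. At the 135 points with a single promoter site there were 168 partners, 60 at 1 to 10 kb and 108 beyond 10 kb, at a median of 16.0 kb. Of these partners 110 were downstream and 58 upstream. Downstream sites were also the majority of all listed sites in these classes, with 43.8% upstream at 1 to 10 kb and 41.7% beyond 10 kb. A difference from those shares was not tested. The promoter site had a higher first value than every partner at 62 points, a lower one than the highest partner at 71, and an equal one at 2. Neither kind of site was regularly the higher, and a point with several partners has more chances to exceed its promoter site.

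The points with the most listed sites, 4 or more each, showed both patterns. On the plus strand of chromosome 5 at 90889916 the promoter site at -191 bp had values of 36 and 36. Its partners at -46502, -35430 and 8383 bp had first values of 38, 8 and 48. On the minus strand of chromosome 6 at 23082987 the promoter site at -145 bp (19 and 15) had partners at -15303, 1810 and 60796 bp with first values of 29, 30 and 15. On both points a partner was above the promoter site.

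On the minus strand of chromosome 14 at 26588343 the promoter site at -497 bp (18 and 13) was close in first value to its 3 partners, at 16, 17 and 21, all beyond 10 kb. On the minus strand of chromosome 17 at 13746961 the promoter site was downstream, at 966 bp (14 and 19), in a run of 4 sites over 2.05 kb with partners at 1427, 1876 and 2867 bp and first values of 10, 21 and 25. In both spans 0 other ZT10 peaks were found, as at the other points with 4 or more listed sites except chromosome 10 at 98725866. The span there held 3. On the plus strand of chromosome 10 at 98725866 and on the minus strand of chromosome 5 at 87521581 the promoter sites, at -200 and -24 bp, each had a first value of 16, below that of a distal partner with 54 and 52. At the point on chromosome 2 at 147872706, which had 6 sites, the upstream promoter site with 32 was the highest.

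Most promoter sites had no other Rev-erbα peak within 10 kb, as did most sites of the other 2 distance classes. Of the 1073 sites, 731 had no other ZT10 peak within 10 kb, 278 had 1, 55 had 2 and 9 had 3 or more, with a maximum of 4. Among the 342 with a neighbour (31.9%, 29.2 to 34.7%), 139 had a DBD-independent neighbour and 203 had neighbours outside the list alone. Within 1 kb 140 promoter sites had another ZT10 peak, which at 81 of them was outside the list alone. Of all 11767 ZT10 peaks 3579 were on the DBD-independent list, so most possible neighbours were outside it.

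The share with a neighbour within 10 kb was 44.4% for sites at 1 to 10 kb, and the difference was -12.5 points (-16.9 to -8.07). Against sites beyond 10 kb, with 28.8%, it was 3.12 points (-0.385 to 6.66), an interval that includes 0. This second comparison depended on the window. With neighbours within 5 kb it was 4.05 points (0.955 to 7.22), and within 50 kb it was -5.24 points (-8.81 to -1.71).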

How the data were processed

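The series holds Rev-erbα ChIP-seq of 3 WT and 3 HNF6 KO samples, and 2 deposited peak lists that name no sample were used. The build was mm9 and the tools included Bowtie and HOMER, per the submitters' processing notes. For versions, settings, the samples pooled and the rule behind the DBD-independent list, nothing is given in the sources used here. The 2 values that the authors deposited with each peak have no stated unit, normalization or experiment and were treated as a score; the distances and identifiers are likewise as deposited by the authors.

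Lists were matched by identical start and end. Shared points were computed as centre minus distance (plus strand) or plus distance (minus strand), with exact agreement required. Shares carry 95% Wilson intervals and differences of shares 95% Newcombe intervals. A difference between 2 differences combines their Newcombe limits in squares. A difference was called where its interval left out 0, and intervals were not adjusted for the number of comparisons. Code was tested on simulated data.

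Named sites were the 20 with the highest first value, the 3 highest in each of 4 classes of side and distance, the 5 pairs with the highest first value at a point, the points with the most listed sites (7 with 4 or more, because of ties) and 3 sites on each side of the limit. Members and lists were chosen with earlier results of these data known. Planned gene lists and motifs were not used, as no mm9 annotation or genome was used here. Python 3.11.15, numpy 2.4.6, pandas 2.3.3 and matplotlib 3.10.9 were used.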

Additional observations from a re-analysis of the deposited data

Results flagged for a closer look

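The difference of upstream minus downstream sites at promoters differed from that of sites farther out, where its own interval included 0. This was judged by the interval of the difference itself, in a comparison chosen after the values had been seen. For the share among the first 1177 ZT10 peaks, upstream minus downstream was larger at promoters by 9.13 percentage points than at 1 to 10 kb. Against sites beyond 10 kb it was larger by 8.18 points. Both intervals included 0 when promoter sites were taken up to 2500 bp (from -0.570 and -0.407 points). For the share with a first value of at least 12 it was larger by 18.1 and 20.3 points, and the interval of the first of these included 0 among sites with a first value of at least 10 (from -0.534 points). Position and first value follow each other, so these are not 4 separate results.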

How the results depend on the processing

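No change of direction or call was seen in 96 of 113 alternatives, which covered 22 results. These include results that were called in neither setting. They also include the checks of membership and of shared points, which have no direction or call. The membership check could not lose a site, since every site already matched at identical coordinates. Restricting the list to first values of at least 10 turned the difference from sites beyond 10 kb in the share at or above 12 to -1.70 points and that among the last 3530 ZT10 peaks to 0.0251, and ended the call of the latter against 1 to 10 kb (-0.704); few peaks at the end of the list pass that limit by construction. It also ended the calls on a lower second value against 1 to 10 kb (-5.08) and on the difference of the sides in first value against 1 to 10 kb (9.12). Autosomes alone ended the calls on a lower second value (-4.43 and -3.59). A promoter window of 2500 bp ended that against sites beyond 10 kb (-3.40) and those on the difference of the sides among the first 1177 peaks (6.73 and 5.03), and gave a call for neighbours beyond 10 kb (5.83). A window of 500 bp gave a call for the first value against 1 to 10 kb (5.00). Identifiers below 27000 ended the first-value call against sites beyond 10 kb (3.72), as did the second value (1.43), and gave a call for neighbours (3.95). Neighbours within 5 and 50 kb gave 4.05 and -5.24. Unless stated, the cause was not tested. No paired analysis was possible because neither list gives values for single replicates, and for the same reason no replicate was left out. A comparison on sequence was not run.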

Other observations

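The identifiers deposited with the peaks differed in make-up between the distance classes. Identifiers of 27000 and above, which do not follow the order of the distances, were carried by 11.6% of promoter sites (125 of 1073, 95% Wilson interval 9.87 to 13.7%). They were carried by 19.98% of sites at 1 to 10 kb (163 of 816, 17.4 to 22.9%) and 18.3% of sites beyond 10 kb (309 of 1690, 16.5 to 20.2%).

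At 0 of 1073 promoter sites was the deposited distance exactly 0 (Wilson upper bound 0.357%). The 25 bp before the start held 77 sites and the distances from 0 to 25 bp held 32. With so few sites per bp, a single distance without a site need not be unusual, and this was not tested.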
